A study of Mus musculus with 4 samples.

Results

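The nuclear genes of oxidative phosphorylation were examined in RNA-seq libraries of mouse T-helper 2 (Th2) primary cells, CD4 T cells that are known as a source of interleukin-4. Members were the genes outside the mitochondrial chromosome whose symbols belong to the Nduf, Sdha to Sdhd, Uqcr, Cox4 to Cox8 and Atp5 families, with pseudogene symbols left out. They numbered 97 of the 50600 genes in the tables. Complex I had 41 members, its Ndufaf assembly factors 8, complex II 4, complex III 8, complex IV 19 and complex V 17. There were 4 libraries, biological replicates 1 to 4 of 1 group from C57BL/6NJ mice, with no treatment, control or other cell type in the labels. All 4 libraries carried the same donor record, and separate animals or cultures are not named. What p-values measure here is thus the spread between these samples alone, and that spread may be technical.

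Oxidative phosphorylation is the process by which mitochondria turn the energy of NADH and succinate into ATP. Complexes I and II pass electrons to ubiquinone, complex III passes them to cytochrome c, and complex IV passes them to oxygen. Complexes I, III and IV pump protons, and complex V, the ATP synthase, makes ATP as the protons flow back. Most subunits are encoded in the nucleus and a few in the mitochondrial genome, so that both sets of genes are needed for complexes I, III, IV and V. Activated T cells are known to change their use of respiration and glycolysis, and the transcription factors NRF1, GABPA and YY1 are known to act on promoters of nuclear respiratory genes.

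The deposited values were counts of sequenced fragments per gene on the strand that the authors' counting selected. Depth was 1804217, 1846441, 2711948 and 2169955 counts in replicates 1 to 4. Genes with exon bases in common with an opposite-strand gene held between 92.2% and 95.9% of the counts of a library. mt-Nd6, the complex I gene on the light strand of the mitochondrial genome, had 35801 to 49430 counts, against 4207 to 7040 for the 12 coding genes of the heavy strand summed. Whether the strand selected was the strand transcribed was not tested, so that each value below is the count of a gene on that strand and is not read as its expression. Of the markers of Th2 and T cells, 9 of 9 were called above 1 TPM, a count per exon length scaled to the library total, beside 37.2% of all genes tested. Of these 9 markers, 4 share at least 50 exon bases with an opposite gene. Il4 shares none and had 24, 21, 25 and 26 counts. Of the B cell markers, Ms4a1 and Cd79b were at 0 in every library and Cd79a had 9 to 15 counts. The 3 neutrophil markers S100a8, S100a9 and Ly6g were at 0. Of 4 macrophage markers, Adgre1 and Lyz2 were at 0, Cd68 had 6 to 18 counts, and Csf1r, whose exons share 871 bases with the opposite gene Hmgxb3, had 983 to 1026. Cd79a, Cd68 and Csf1r were called above 1 TPM too, at means of 5.92, 6.29 and 148 TPM. The median over the 9 Th2 and T cell markers was 6.81 TPM, so that these calls do not tell the cell types apart.

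Counts of the members were low. Of the 97 members, 88 had a count in at least 1 library, the mean count reached 10 in 41 members and 30 in 10. The members together held 3476, 3820, 3508 and 3069 counts in replicates 1 to 4, which was 0.129% to 0.207% of a library. The 3 members with the highest mean count, Atp5f1, Atp5j and Cox6c, held 61.8% ± 8.38 of these counts (SD, n = 4). At the median exon length of the members, 1381 bases, 1 TPM stood for 1.70 to 2.29 counts. The 9 members with no count in any library were Ndufa11b, Ndufb4, Ndufb4c, Ndufs6b, Cox6a2, Cox6c2, Cox7b2, Cox8c and Atp5s. Of these, Ndufa11b, Ndufb4c, Ndufs6b and Cox6c2 are typed as processed pseudogenes in the annotation, although their symbols passed the rule. A count of 0 allows up to 3 counts, or 1.11 to 1.66 CPM (counts scaled to the library total), which covers counting error only.

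**Figure D1:**
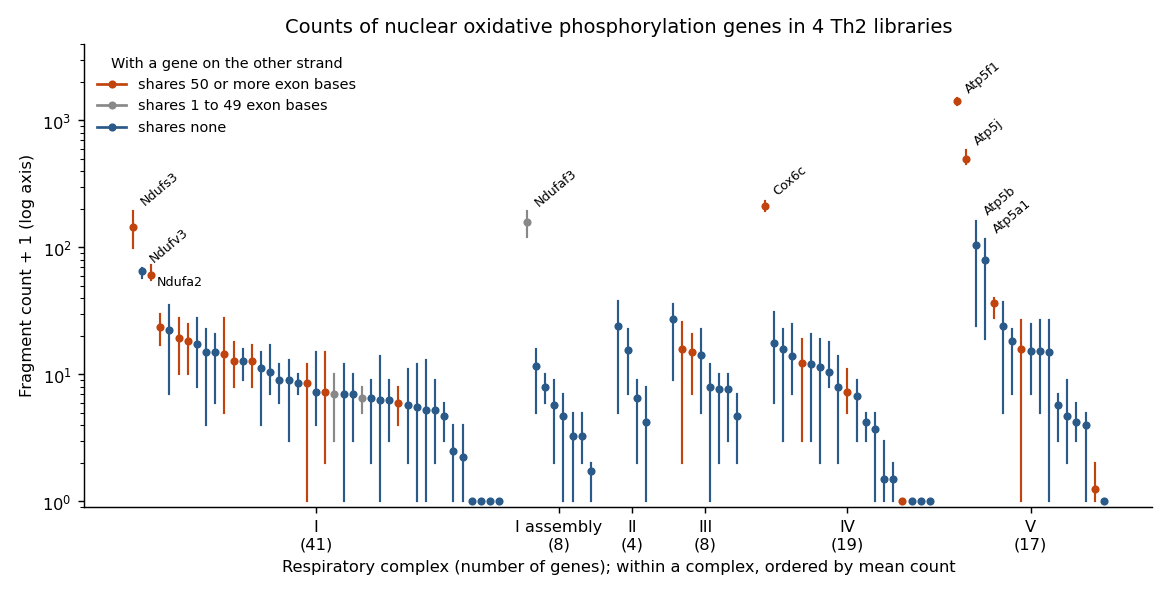
Fragment count plus 1 on a log axis for the 97 members, grouped by respiratory complex and ordered by mean count. Points are means over 4 libraries, vertical lines run from the lowest to the highest library, and colour shows whether the gene has exon bases in common with an opposite-strand gene. Atp5f1 and Atp5j stand above all other members, and lines of genes sharing no bases are mostly long.

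Each gene's level was tested against 1 TPM with edgeR's quasi-likelihood test with Benjamini-Hochberg adjustment over all 17203 genes with a count. Of the 88 members tested, 65 were called above 1 TPM, 2 were called below it and 21 passed in neither direction. Among all genes tested, 37.2% were called above and 26.1% below. The median log2 ratio to 1 TPM was 2.18 over the members tested and 0.17 over all genes tested. Without replicate 4, 70 members were called above 1 TPM and 1 below. The mean count was under 10 in 56 members. Many members have near-identical pseudogenes, and the headers name no option for reads that align to several places, so that their counts are uncertain.

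By complex, the number called above 1 TPM was 27 of 37 tested members for complex I, 3 of 4 for complex II, 8 of 8 for complex III, 12 of 15 for complex IV and 12 of 16 for complex V. Of the 8 Ndufaf assembly factors, 3 were called above and 5 in neither direction. The 2 members called below 1 TPM were both of complex V, Atp5l and Atp5g1, and Atp5l had no count without replicate 1. Of tested members, 16 of 21 that share at least 50 exon bases with an opposite gene, 3 of 3 that share 1 to 49 and 46 of 64 that share none were called above 1 TPM, a difference that was not tested.

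Other gene families gave a scale for these numbers. Of 78 mitochondrial ribosomal protein genes, which build the ribosome of the organelle, 45 were called above 1 TPM and 5 below. Of 39 tested proteasome subunit genes, 35 were above and 2 below. Over all genes tested, the shares were 37.2% above and 26.1% below. The median log2 ratio to 1 TPM was 2.18 for the oxidative phosphorylation members, beside 1.48 for the ribosomal and 2.30 for the proteasome genes.

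The members were divided by exon geometry. Of the 97 members, 22, or 22.7%, shared at least 50 exon bases with an opposite-strand gene, against 14.9% of all genes and 20.2% of protein-coding genes. Mitochondrial ribosomal protein genes stood at 28.2% and proteasome subunit genes at 25.0%, so that this share was not particular to the members. A further 3 members shared 1 to 49 bases, and 72 shared none. By complex, 11 of 41 members of complex I shared at least 50 bases, 2 of 8 of complex III, 4 of 19 of complex IV and 5 of 17 of complex V, and none of the 4 of complex II or the 8 assembly factors did. These members made 25 pairs with 25 opposite genes, of which 16 were protein-coding and 5 were typed as antisense. In 14 pairs the genes ran away from each other, in 7 they ran towards each other and in 4 one lay within the span of the other. The shared bases lay in the first exon of the member in 13 pairs and in its last exon in 8.

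The promoters of the pairs that run away from each other are where the shared first exons begin. Of 13 members in such pairs, 10 had a promoter window in the RefSeq table (build GRCm38.p6, 250 bases before to 50 after the annotated start). Those 5 whose window held 1 of 3 motifs searched on both strands are shown, to place the start of the opposite gene beside the letters of the member's own promoter. The motifs were GCGCANGCG for NRF1, CCGGAAGT for the ETS factor GABPA and AANATGGCG for YY1, and capitals mark the match, as written or as its reverse complement. Each sequence is on the strand of the member.
Ndufs3: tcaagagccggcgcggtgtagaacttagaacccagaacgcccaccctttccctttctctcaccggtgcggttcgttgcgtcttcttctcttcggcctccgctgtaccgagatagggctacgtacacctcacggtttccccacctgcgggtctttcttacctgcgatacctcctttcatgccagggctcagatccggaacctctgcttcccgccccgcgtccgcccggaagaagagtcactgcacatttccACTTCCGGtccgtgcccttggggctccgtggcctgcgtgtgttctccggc
Ndufb11: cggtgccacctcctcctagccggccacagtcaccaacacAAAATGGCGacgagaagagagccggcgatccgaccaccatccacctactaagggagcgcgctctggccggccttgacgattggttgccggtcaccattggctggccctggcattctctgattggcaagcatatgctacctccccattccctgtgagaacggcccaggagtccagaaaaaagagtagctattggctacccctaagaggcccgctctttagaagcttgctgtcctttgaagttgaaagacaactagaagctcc
Atp5o: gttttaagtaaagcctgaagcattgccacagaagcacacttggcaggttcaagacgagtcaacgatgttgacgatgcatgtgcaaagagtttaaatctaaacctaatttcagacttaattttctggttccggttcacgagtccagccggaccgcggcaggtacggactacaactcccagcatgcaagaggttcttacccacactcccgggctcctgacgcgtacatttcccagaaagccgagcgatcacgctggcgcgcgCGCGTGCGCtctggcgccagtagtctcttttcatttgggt
Atp5j: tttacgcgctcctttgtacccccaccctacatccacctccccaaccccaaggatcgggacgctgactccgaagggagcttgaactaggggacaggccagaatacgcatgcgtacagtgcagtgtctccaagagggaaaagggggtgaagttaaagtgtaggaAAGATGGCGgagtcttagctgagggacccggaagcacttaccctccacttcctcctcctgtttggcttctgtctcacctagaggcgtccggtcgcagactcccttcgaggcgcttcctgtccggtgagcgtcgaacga
Atp5l: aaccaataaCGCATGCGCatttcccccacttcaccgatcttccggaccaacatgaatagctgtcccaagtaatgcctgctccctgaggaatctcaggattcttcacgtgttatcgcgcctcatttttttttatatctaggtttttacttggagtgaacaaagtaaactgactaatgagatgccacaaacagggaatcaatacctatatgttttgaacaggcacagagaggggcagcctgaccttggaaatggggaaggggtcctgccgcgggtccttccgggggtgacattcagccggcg
Each of these windows held 1 match. The window of Ndufs3 (chr2:90904672-90904971, minus strand) held the GABPA letters, and the opposite gene Kbtbd4 has its annotated start inside that window. The window of Ndufb11 (chrX:20617570-20617869, minus strand) held the YY1 letters, with the start of Rbm10 116 bases downstream of the start of Ndufb11. The window of Atp5o (chr16:91931581-91931880, minus strand) and that of Atp5l (chr9:44920693-44920992, minus strand) held the NRF1 letters, and D430001F17Rik and Gm30934 start 393 and 543 bases downstream of their starts. The window of Atp5j (chr16:84834927-84835226, minus strand), taken at the more downstream of its RefSeq starts, held the YY1 letters and lies next to the annotated start of Gabpa, which is 51 bases downstream of that start of Atp5j. Over the 76 members with a window, 22 or 28.9% held the NRF1 letters, 11 or 14.5% the YY1 letters and 5 or 6.58% the GABPA letters. In windows of the same length for all 27025 genes of the table, the shares were 7.03%, 2.76% and 4.31%, and for its 17491 protein-coding genes 9.63%, 3.64% and 5.69%. A match is a description of these letters and not evidence of a bound site.

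Summed over the 25 pairs, most counts lay in the opposite genes. The same sums over the other opposite-strand pairs were not computed, so whether this is particular to the members was not tested. The 22 members of the pairs together had 2425, 2611, 2477 and 2648 counts in replicates 1 to 4. The 25 opposite genes together had 20082, 20502, 19725 and 20798 counts in replicates 1 to 4. The opposite genes also exceeded the whole set, with 5.89 ± 0.618 times the counts of all 97 members (SD, n = 4). The ratio was 14.8 ± 2.44 for complex I, 47.3 ± 41.3 for complex III, 17.5 ± 3.16 for complex IV and 1.55 ± 0.263 for complex V. The spread in complex III came from replicate 4, where its members had 25 counts and the ratio was 109. Of the 25 opposite genes, 15 lie opposite no gene other than the member, and these alone had 3822 ± 694 summed CPM beside 9773 ± 1816 for all 25.

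In 17 of the 25 pairs the member was lower than its opposite gene in 4 of 4 libraries, and in 6 it was higher in 4 of 4. The share over all opposite-strand pairs was not computed, so whether the members differ from other paired genes was not tested. The comparison was made within each library on log2(CPM + 0.5) and tested two-sided by exact permutation of the signs. With 4 libraries the smallest p this exact test allows is 0.13, so that no pair could pass 0.05, and each of these 23 pairs had that smallest p, which adjusted over the 25 pairs was 0.136. On the per-length scale of log2(TPM + 0.1) the member was again lower in every library in 17 pairs. In Cox6a2 and Itgad neither gene had a count, and in Atp5o and the nested transcript Gm15976 the sign differed between libraries.

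**Figure D2:**
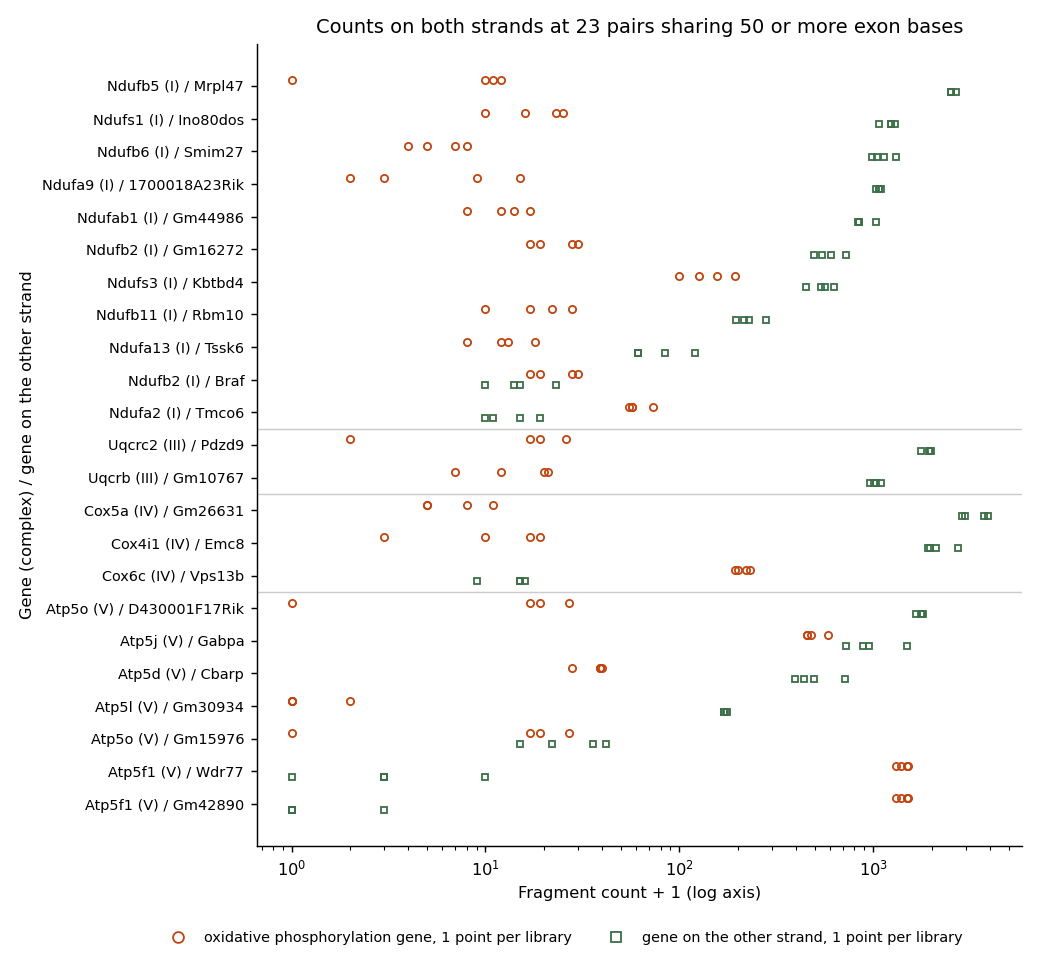
Fragment count plus 1 on a log axis for the 23 pairs, of those with 50 or more exon bases in common, in which the member and the opposite-strand gene both had a count, grouped by complex. Circles are the member and squares the opposite gene, 1 point per library. Opposite genes lie mostly right of the members, with Atp5f1, Cox6c, Ndufa2 and Ndufb2 (against Braf) the other way.

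Complex I, the NADH dehydrogenase, opens the chain. Ndufs3, a core subunit of its matrix arm, had 98, 126, 156 and 193 counts in replicates 1 to 4, and the opposite gene Kbtbd4 had 535, 562, 625 and 447. Ndufs3 was lower than Kbtbd4 in each library, by a mean of 1.95 ± 0.53 on the log2 CPM scale (SD, n = 4). Both genes share 88 bases of the first exon of Ndufs3. Ndufa2, an accessory subunit of the same arm, had 56, 56, 72 and 54 counts and shares 60 bases with Tmco6, which had 14, 9, 18 and 10. There the member was the higher gene in all libraries. Per exon length, Ndufa2 had 74.1 ± 7.24 TPM and Ndufs3 46.3 ± 9.69 TPM (SD, n = 4), and these were the highest levels among the complex I genes.

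Ndufv3, an accessory subunit of the NADH-binding module, shares no exon bases with another gene and had 66, 56, 68 and 65 counts. Its count in replicate 4 lay within the range of the other libraries. Ndufa6, another accessory subunit, had 6, 10, 16 and 6 counts and 11.8 mean TPM. Ndufv3 and Ndufa6 lay above 1 TPM by log2 ratios of 4.19 ± 0.20 and 3.58 ± 0.40 (SE), with adjusted p from edgeR of 1.6e-26 and 1.4e-08.

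Several subunits of complex I had few counts beside a gene with many. Ndufb5, a subunit of the membrane arm, had 10, 9, 11 and 0 counts, and the opposite gene Mrpl47, which encodes a protein of the mitochondrial ribosome, had 2503, 2513, 2667 and 2531. They share 616 bases in the first exon of Ndufb5, the longest overlap among the pairs. Ndufb6 had 4, 6, 7 and 3 counts against 1141, 1303, 986 and 1050 for Smim27. Ndufs1, the large iron-sulfur core subunit, had 15, 22, 24 and 9 counts against 1238, 1228, 1298 and 1064 for the long noncoding gene Ino80dos. In all 3 pairs the groups of counts did not come near each other. Ndufa9, Ndufab1, Ndufb2, Ndufb11 and Ndufa13 had means of 6.25 to 22.5 counts, and each was lower than the opposite gene 1700018A23Rik, Gm44986, Gm16272, Rbm10 or Tssk6 in 4 of 4 libraries.

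The other complex I genes had mean counts of at most 21.2. Ndufa4, now known as a subunit of complex IV, had 14, 13, 11 and 3 counts, and its paralogue Ndufa4l2, known for induction under low oxygen, had 5, 7, 6 and 4. Their log2 ratios to 1 TPM were 2.41 ± 0.40 and 1.84 ± 0.46 (SE), and the difference between the paralogues was not tested. Among the assembly factors, Ndufaf3 had 190, 191, 124 and 120 counts, the highest of the 8. It shares 48 bases of its last exon with Impdh2, which had 31, 46, 19 and 3. Ndufaf2 had 15, 15, 9 and 4 counts and Ndufaf8 had 5, 7, 7 and 9, and no other factor had a mean above 4.75.

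Complex II, succinate dehydrogenase, is the only complex whose subunits are all encoded in the nucleus, and it also belongs to the tricarboxylic acid cycle. None of its genes shares exon bases with an opposite gene. Sdha, the flavoprotein, had 21, 37, 31 and 4 counts in replicates 1 to 4, and Sdhb, the iron-sulfur subunit, had 18, 22, 12 and 6. The membrane anchors Sdhc and Sdhd had 7, 2, 4 and 0 counts and 5, 8, 8 and 1. In each of the 4 genes replicate 4 was the lowest library. Sdha, Sdhb and Sdhd were called above 1 TPM with edgeR, at log2 ratios of 2.10 ± 0.34, 2.23 ± 0.35 and 1.67 ± 0.47 (SE), and Sdhc, at -0.49 ± 0.58, passed in neither direction. The call of Sdhd was lost without replicate 2 or 3, at an adjusted p from edgeR of 0.078 or 0.091, with limma at 0.067, with DESeq2 at 0.13 and against 2 TPM at 0.23. Of 13 enzymes of the tricarboxylic acid cycle, 8 were called above 1 TPM and none below, where 37.2% and 26.1% of all genes tested were. The summed level of these enzymes was 43.8 CPM in replicate 4 beside 124 to 163 CPM in the others.

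Complex III, the cytochrome bc1 complex, had all 8 nuclear members called above 1 TPM with edgeR, but the call of Uqcr10 was lost with limma, at an adjusted p of 0.30. Uqcrh, the hinge protein, had 28, 35, 34 and 8 counts and Uqcr10, a small subunit, had 8, 9, 11 and 0. Uqcrb, which lies near the quinone site, had 11, 20, 19 and 6 counts, against 1101, 1009, 1035 and 966 for the opposite gene Gm10767. Uqcrc2, a core protein, had 18, 25, 16 and 1 counts, against 1940, 1969, 1981 and 1755 for the opposite gene Pdzd9. The 2 pairs differed in overlap, with 50 shared bases for Uqcrb and 504 for Uqcrc2. Per exon length, Uqcrh stood highest at 15.4 mean TPM, with Uqcrb at 11.5 and Uqcr10 at 8.67.

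Complex IV, cytochrome c oxidase, has several subunits with tissue isoforms. Cox6c, a small membrane subunit, had 231, 220, 193 and 199 counts, against 14, 15, 8 and 14 for the opposite gene Vps13b, with which it shares 250 bases. The groups did not overlap, and the 4 libraries of Cox6c lay close together. Cox5a, a nuclear-encoded subunit, had 7, 10, 4 and 4 counts, against 3890, 3704, 2976 and 2866 for the opposite gene Gm26631. This was the opposite gene with the most counts in the set.

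Isoform groups of complex IV differed in which gene had counts. Cox4i1, the form of most tissues, had 16, 18, 9 and 2 counts beside 1971, 2094, 1925 and 2751 for the opposite gene Emc8, and Cox4i2, the form known from lung and low oxygen, had 14, 8, 6 and 24. Among the 24 members without shared bases whose mean count reached 10, Cox4i2 alone lay above the other libraries' mean in replicate 4 by more than 1 on the log2 scale. Cox6a1 had 9, 20, 13 and 2 counts and its muscle form Cox6a2 none. Cox6b1 had 12, 18, 11 and 1, and the testis form Cox6b2 had 1, 0, 1 and 0. Of the Cox7a forms, the muscle form Cox7a1 had 4, 2, 4 and 3 counts, Cox7a2 had 13, 9, 5 and 1, and the supercomplex factor Cox7a2l had 3, 4, 4 and 0. Cox7b had 15, 22, 20 and 2 counts and Cox7b2 none. Cox8a had 6, 7, 8 and 2 counts, the muscle form Cox8b had 0, 0, 0 and 2, and Cox8c had none. Of these isoforms, Cox6b2, Cox7a2l and Cox8b passed in neither direction against 1 TPM, and of the 5 muscle markers Acta1, Myh6 and Actc1 were at 0 in every library, Myh7 had 0, 0, 0 and 1 counts and Ckm had 3, 9, 7 and 9.

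Complex V, the ATP synthase, held most of the counts of the members. Atp5f1, the b subunit of the peripheral stalk (chr3:105942698-105960099, minus strand), had 1386, 1502, 1314 and 1493 counts. The opposite gene Wdr77 had 0, 9, 2 and 2, and the opposite transcript Gm42890 had 2, 0, 0 and 0. Atp5f1 was thus far above both in every library, although it shares 337 and 203 bases of its first exon with them. Atp5j, coupling factor 6 of the same stalk (chr16:84827866-84835625, minus strand), had 456, 452, 474 and 585 counts, against 726, 885, 946 and 1487 for Gabpa. The member was the lower gene in each library, by 0.99 ± 0.28 on the log2 CPM scale (SD, n = 4), and both genes were at their highest in replicate 4. Per exon length Atp5f1 stood at 250 ± 42.7 TPM and Atp5j at 112 ± 14.9 TPM (SD, n = 4), the highest of all members, and their ranges over the libraries did not meet.

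Genes of the catalytic head and the central stalk of the enzyme had lower counts than Atp5f1 and Atp5j. Atp5a1, the alpha subunit, had 89, 116, 92 and 18 counts, and Atp5b, the beta subunit, had 107, 162, 124 and 23. Neither shares exon bases with another gene, and in both genes replicate 4 lay far below the other 3 libraries. Such a fall was not particular to the head, since Atp5h of the peripheral stalk had 11, 19, 26 and 0 counts. Atp5c1, the gamma subunit of the central stalk, had 36, 27, 26 and 4 counts. Atp5d, the delta subunit, had 38, 27, 38 and 39 counts, against 438, 396, 493 and 713 for the opposite gene Cbarp. Atp5k, subunit e, which helps the enzyme pair in the membrane, had 22, 19, 22 and 6 counts and 20.4 mean TPM.

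Atp5o, the stalk protein that confers oligomycin sensitivity, had 18, 26, 16 and 0 counts, against 1654, 1807, 1755 and 1779 for the opposite transcript D430001F17Rik. Atp5o also shares 287 exon bases with Donson on its own strand, so that its count is uncertain. Atp5l, subunit g, had 1, 0, 0 and 0 counts beside 168, 168, 174 and 175 for the opposite transcript Gm30934. The 3 genes for the same mature subunit c of the rotor ring were each set against 1 TPM, and differences between them were not tested. Atp5g2 and Atp5g1 had similar mean counts, 3.25 and 3.0, over exon lengths of 1675 and 4912 bases. Atp5g3 had 24, 16, 11 and 6 counts and a log2 ratio to 1 TPM of 2.24 ± 0.36 (SE), Atp5g2 had 4, 2, 2 and 5 and a ratio of 0.46 ± 0.55, and Atp5g1 had 4, 4, 4 and 0 and a ratio of -1.20 ± 0.58. Adjusted p from edgeR was 3.5e-06 for Atp5g3, 0.49 for Atp5g2 and 0.043 for Atp5g1. The call of Atp5g1 was lost when any 1 of the 4 replicates was left out, at adjusted p of 0.063 to 0.14 from edgeR.

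Replicate 4 was low at members that share no exon bases. Those members together had 851, 1002, 893 and 295 counts in replicates 1 to 4, while members sharing at least 50 bases had 2425, 2611, 2477 and 2648. The latter sums were led by few genes, since Atp5f1, Atp5j and Cox6c had 1493, 585 and 199 of the 2648 counts in replicate 4. Each library was set against the mean of the other 3 on log2(CPM + 0.5), for members whose mean count reached 10. Over 24 members without shared bases, the median deviation was -1.82 in replicate 4, and 0.78, 1.1 and 0.18 in replicates 1, 2 and 3. Since replicate 4 enters the mean of the others, it also raises their deviations. Of these 24 members, 21 were lower in replicate 4 by more than 1, beside 51.4% of the 2465 genes of the tables without shared bases that met the same limit. The 3 exceptions were Ndufb10, Ndufv3 and Cox4i2. The strongest deviations were those of Atp5h, subunit d of the stalk, at -4.16, and Cox6b1 at -2.85.

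Over 16 members sharing at least 50 bases, the median deviation of replicate 4 was -0.55, and 7 were lower by more than 1, beside 9.49% of the 3384 such genes in the tables. This median was -0.35 with TMM factors and -0.24 with DESeq2 size factors, and it turned to 0.0865 over the 6 members whose mean count reached 30, none of which was lower by more than 1. Of the opposite genes, 21 had a mean count that reached 10, and their median deviation in replicate 4 was -0.05, with none lower by more than 1. At some members with few counts beside a gene with many, replicate 4 was again low, with -4.31 for Atp5o, -3.35 for Uqcrc2 and -2.33 for Cox4i1. At others it was not, with 0.34 for Ndufb2, 0.14 for Atp5d and -0.09 for Ndufa13. The same library had 121 summed CPM of the 9 Th2 and T cell markers, beside 163 to 267 CPM in the others. Ptgdr2, which shares 1031 exon bases with Ccdc86, held 170 of the 263 marker counts in replicate 4. Cd4, Cd3d and Trac, which share no exon bases, were at their lowest there, with 20, 7 and 2 counts. Replicate 4 was not the lowest library for Il4, with 24, 21, 25 and 26 counts in replicates 1 to 4. In bulk samples, fewer cells of a type and less RNA per cell cannot be told apart, and the part of marker levels in these deviations was not tested.

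**Figure D3:**
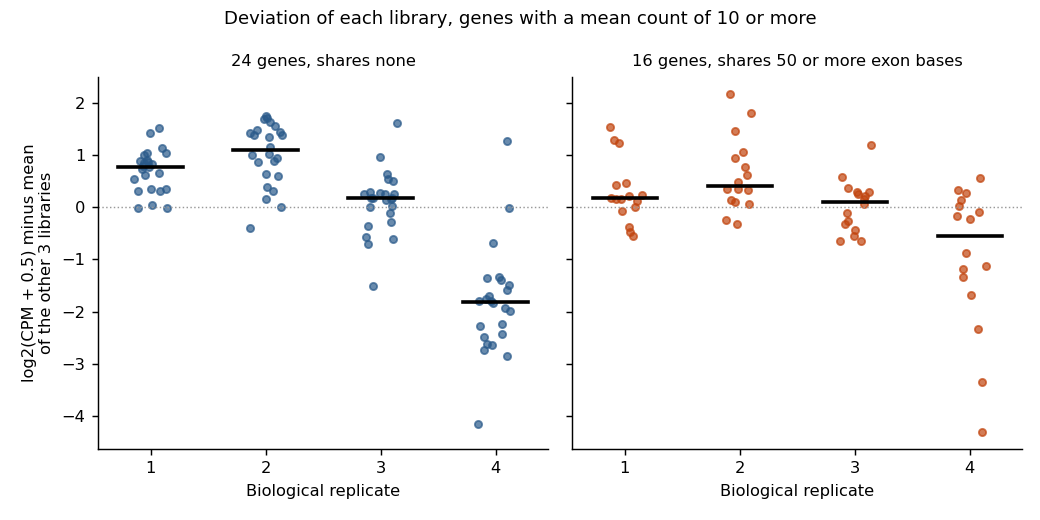
Deviation of each library from the mean of the other 3 on log2(CPM + 0.5), by biological replicate, for 24 members sharing no exon bases and 16 sharing 50 or more, all with a mean count of 10 or more. Points are genes and bars are medians. In replicate 4 the median is -1.82 for members sharing none and -0.55 for members sharing 50 or more, where it turns to 0.0865 over the 6 whose mean count reached 30.

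The low level of replicate 4 was seen in each complex. Summed over members without shared bases, complex V had 175, 214, 126 and 31.8 CPM in replicates 1 to 4, complex I had 162, 153, 98.5 and 59.4 CPM, and complex IV had 53.2, 68.8, 40.2 and 22.6 CPM. Complexes II and III had 5.07 and 8.30 CPM in replicate 4, beside 20.3 to 37.4 CPM and 31.0 to 48.2 CPM in the other libraries. The opposite genes did not share this order, since their lowest library was replicate 3 in complexes I, III, IV and V.

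**Figure D4:**
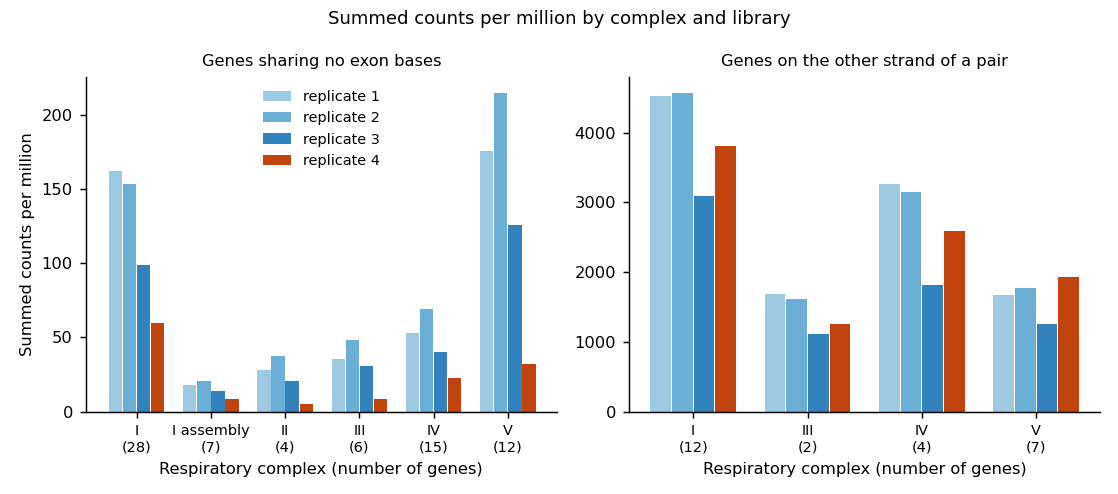
Summed CPM by complex and library, for members sharing no exon bases and for the opposite genes of the pairs, with the number of genes in brackets. Bars are single libraries, and both axes start at 0 on different scales. Replicate 4 is the lowest library in each complex on the left, and replicate 3 in each complex on the right.

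Other genes of the pathway were read from fixed lists. Of the 5 carriers and subunits outside the symbol families, 4 were called above 1 TPM, beside 37.2% of all genes tested. Among them was Etfdh, which passes electrons from fat oxidation to ubiquinone, with 244, 282, 254 and 272 counts. Etfdh alone of the 5 shares exon bases with an opposite gene, 278 with 4930579G24Rik, which had 0 to 5 counts. Cycs, cytochrome c, had 11, 23, 24 and 5 counts. Of 38 tested assembly factors of other kinds, 14 were called above 1 TPM, a share of 36.8% beside 37.2% of all genes tested, and 7 below. Per exon length the highest were Cox20, Sco2 and Surf1, all needed to build complex IV, with means of 1003, 452 and 656 counts, and these share 804, 827 and 137 exon bases with Hnrnpu, Ncaph2 and Surf2.

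Of 11 tested regulators of mitochondrial genes, 6 were called above 1 TPM and 2 below, where 37.2% and 26.1% of all genes tested were. Gabpa, the ETS factor named above as the gene opposite Atp5j, was the highest at 126 ± 34.9 TPM (SD, n = 4). Pprc1, a PGC-1 related coactivator, had 231, 250, 208 and 647 counts, and Yy1 had 58, 89, 111 and 205. Both were highest in replicate 4, where Nrf1 had 2 counts beside 10, 12 and 11. Ppargc1a, the coactivator known from muscle and brown fat, had no count in any library.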

How the data were processed

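FeatureCounts 1.4.6-p4 was run by the authors over exons of GENCODE M13, with strand setting 1 and only read pairs aligned at both ends, on alignments named star2 (per the file headers). The labels give mm10. The deposited values were raw counts per gene, not normalized. Total RNA-seq is the assay in the labels, whereas the linked protocol is named for poly(A) RNA.

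Gene IDs were matched to symbols for 50376 of 50600 genes. CPM and TPM were computed from counts and exon lengths, and shared bases from merged exons of the tables. Levels were tested with edgeR 4.0.16 (robust quasi-likelihood, offsets at 1 TPM), with limma 3.58.1 and DESeq2 1.42.0 as alternatives, in R 4.3.3. On simulated counts for the level test, edgeR called 98% of 100 genes at 4 TPM above and 47% of 100 at 0.25 TPM below, in a fit of 16161 genes. Python 3.11.15 and scipy 1.17.1 were used for the rest.

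Members and lists were chosen with earlier results of these data known. Named genes were, per complex, the 3 members of highest mean TPM, the 2 highest without shared bases, the 3 opposite genes of highest mean count, and fixed isoform groups. Other genes were named after their values were seen. The robust form of edgeR's moderation was chosen after the data were seen. Some genes are not reported here.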

Additional observations from a re-analysis of the deposited data

Results flagged for a closer look

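The CPM of the named genes and the summed CPM of the complexes were set against Dixon's 95% limit for 1 of 4 libraries standing apart, which chance passes in about 1 of 20 groups. Of 73 such values, 2 passed. Uqcr10, a small subunit of complex III, had 8, 9, 11 and 0 counts in replicates 1 to 4, and the gap of replicate 4 to the nearest library was 0.832 of the range. Cox8b, the muscle form of a complex IV subunit, had 0, 0, 0 and 2 counts, and the gap of replicate 4 was 1.0 of the range. Both rest on a few counts.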

How the results depend on the processing

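Of 65 members called above 1 TPM and 2 below, the count above was 69 with totals that leave out the mitochondrial chromosome and CT010467.1, 76 against 0.5 TPM, 47 against 2 TPM, 53 with DESeq2 and 51 with limma. It was 39 of 41 at a mean count of at least 10, where 87.2% of all genes tested were called above, and 11 of 11 under edgeR's default filter, where 98.6% were, so that these counts lie near the background. Leaving out 1 replicate gave 54 to 70 above and 0 to 1 below. The count below was 8 against 2 TPM, 1 against 0.5 TPM, with those totals, with limma or without robust moderation, and 0 with DESeq2 or either filter on counts. With no filter it was 3.

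At least 200 shared bases left 11 members with an opposite gene and 6722 summed CPM of opposite genes. The 15 opposite genes that lie opposite no gene other than the member had 3822 CPM. In both settings fewer genes were summed. Leaving out 1 replicate gave 9320 to 10606 CPM for the opposite genes and 1545 to 1803 CPM for the members. Pairs with the member lower in every library numbered 17 or 18 under each alternative. At a mean count of at least 30, only 3 members without shared bases were left, with Ndufv3 at -0.02 in replicate 4. The median deviation of replicate 4 over these 3 was -2.44. Over members sharing 50 or more it was -0.74 with all members that had a count, -0.35 with TMM factors, -0.24 with DESeq2 size factors and 0.0865 at a mean count of at least 30, where its direction turned, and the cause was not tested.

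Single ratios near 0 changed sign. Cox7a2l was -0.0155 with limma and -0.23 against 2 TPM, Atp5g2 was -0.54 against 2 TPM and Sdhc was 0.51 against 0.5 TPM. Cox8b was 0.23 without the mitochondrial chromosome and CT010467.1, 0.98 against 0.5 TPM, 0.33 without replicate 1, 0.34 without replicate 2 and 0.48 without replicate 3. No paired analysis was possible because the libraries form 1 group, so that no replicate number pairs samples across groups. Depth limits all members, since 56 of 97 had a mean count under 10.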
